A study of Arabidopsis thaliana with 123 samples.

Results

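The transcripts of 10 genes for VAL proteins and Polycomb repressors were followed in Arabidopsis thaliana seeds, from mid-development to the dry seed, in wild type and in 10 mutant or transgenic lines. The genes were VAL1 (AT2G30470), VAL2 (AT4G32010), VAL3 (AT4G21550), CLF (AT2G23380), SWN (AT4G02020), EMF2 (AT5G51230), VRN2 (AT4G16845), FIE (AT3G20740), LHP1 (AT5G17690) and PKL (AT2G25170). They were taken by identifier for their known roles, although earlier results of these data were known when they were chosen. They make up 10 of the 37336 genes in the count table. All 10 had enough counts to be tested in both batches of libraries.

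VAL proteins carry a B3 domain that binds the RY element of DNA, and in seedlings they shut down the genes of embryo maturation. They help to recruit Polycomb repressive complexes, of which PRC2 places the H3K27me3 mark on histones and PRC1 is associated with monoubiquitin on histone H2A. CLF and SWN are alternative methyltransferases of PRC2, EMF2 and VRN2 are alternative zinc finger subunits, and FIE is the WD40 subunit they share. LHP1 is a chromodomain protein that binds H3K27me3, and PKL is a CHD3-type chromatin remodeller needed to keep embryo genes silent after germination.

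All plants were of the accession Col-0. Wild type was sampled at 12, 14, 16, 18, 20, 22 and 24 days after pollination (DAP) and as dry seed in batch A, and from 18 DAP to dry seed in batch B. The labels name the batches as separate experimental rounds. The line abi3-6, labelled as a knock-out of the seed transcription factor ABI3, was sampled at 16 to 22 DAP in batch A and at 24 DAP and dry in batch B. All other lines were in batch B: abi3-12 (also labelled a knock-out of ABI3), the double line abi3-12 dog1-4 and the triple line abi3-12 dog1-4 cyp707a2 from 18 DAP to dry, and dog1-4 from 20 DAP to dry. Only dry seed was sampled of aba2-1, dog1-4 aba2-1, abi3-12 aba2-1, abi3-12 dog1-4 aba2-1 and L2-1. DOG1 sets the depth of dormancy, ABA2 acts in making the hormone abscisic acid (ABA), and CYP707A2 breaks ABA down. L2-1 is labelled as a transgenic line that adds the DOG1 allele of the accession Cvi to Col-0. Groups held 3 libraries, except for 2 each in abi3-6 at 16, 18, 20 and 22 DAP, wild type at 24 DAP in batch A and abi3-12 at 18 DAP. Each library came from a pool of seeds from several siliques, and no label says that the libraries of a group came from separate plants, so p-values measure the spread between these libraries.

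The 123 libraries held 2577281 to 20277489 counts (median 11678153). In a check of every library against the mean profiles of all groups, 28 lay nearer to another group than to their own, and 4 of these nearer to another genotype: replicate 1 of wild type at 20 DAP in batch B, of abi3-12 and of abi3-12 dog1-4 cyp707a2 at 18 DAP, and of abi3-12 dog1-4 at 24 DAP. DOG1 transcript stood at 33.0 ± 8.15 CPM in dry wild type and at no more than 1.40 CPM in any dry library of a line carrying dog1-4, with 5.57 CPM as the lowest value elsewhere in dry seed of batch B. The abi3 alleles left ABI3 transcript in place, with 200.2 ± 7.51 CPM in dry wild type, 143 ± 11.5 CPM in abi3-6 and 118 ± 4.39 CPM in abi3-12, so its level does not check those labels. Values are CPM, counts relative to library size scaled by the trimmed mean of M values, as mean ± SD. Differences are log2 fold changes with their SE from edgeR's quasi-likelihood test, two-sided, with Benjamini-Hochberg adjustment over all genes tested, with called meaning an adjusted p under 0.05. Scaling by library totals alone moved the median gene by -0.54 to 1.27 on the log2 scale between comparisons, so each change is one relative to the bulk of the genes, and a direction that turns under library totals is named where it is given. RNA came from whole seeds, in which fewer cells of a type and less RNA per cell cannot be told apart.

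The genes lie on 4 chromosomes of the TAIR10.1 assembly in the RefSeq annotation. VAL1 lies at chr2:12980428-12985277, minus strand, 12 exons, VAL2 at chr4:15479379-15485354, plus strand, 16 exons, and VAL3 at chr4:11462969-11468679, plus strand, 9 exons. The methyltransferase gene CLF lies at chr2:9955092-9960386, plus strand, 17 exons, and its partner SWN at chr4:886580-891987, plus strand, 15 exons. EMF2 lies at chr5:20823644-20829644, plus strand, 22 exons, VRN2 at chr4:9476069-9479878, plus strand, 14 exons, and FIE at chr3:7248809-7252452, minus strand, 13 exons. LHP1 lies at chr5:5827142-5829763, minus strand, 5 exons, and PKL at chr2:10713807-10724106, plus strand, 31 exons. Exons of another gene overlap 2.77% of the exonic bases of VAL2, 2.28% of those of CLF and 5.89% of those of FIE, and whether the counting used strand is not given in the sources used here.

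The 250 bases before the annotated start are shown for 4 genes that recur in the results below. VAL1 and LHP1 were lower and CLF higher in dry seed of several lines, and SWN is the alternative to CLF in PRC2. Each is written 5′ to 3′ on the strand of its gene (RefSeq, TAIR10.1), in lower case with matches to the searched motifs in capitals. The RY element was searched as CATGCA, the ABA response element (ABRE) as ACGTG, the G-box as CACGTG, the telobox as AAACCCTA and the GAGA repeat as GAGAGAGA, each on both strands.
VAL1 promoter (chr2:12985278-12985527, minus strand): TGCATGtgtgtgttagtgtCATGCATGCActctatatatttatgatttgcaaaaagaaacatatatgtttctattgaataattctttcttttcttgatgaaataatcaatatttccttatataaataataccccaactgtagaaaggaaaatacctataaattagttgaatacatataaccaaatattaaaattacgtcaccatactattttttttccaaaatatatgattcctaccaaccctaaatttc
CLF promoter (chr2:9954842-9955091, plus strand): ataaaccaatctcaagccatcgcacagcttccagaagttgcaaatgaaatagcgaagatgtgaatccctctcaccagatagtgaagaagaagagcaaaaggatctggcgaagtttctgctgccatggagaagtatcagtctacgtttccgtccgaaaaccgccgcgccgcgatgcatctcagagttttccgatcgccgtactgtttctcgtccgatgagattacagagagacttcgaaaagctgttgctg
SWN promoter (chr4:886330-886579, plus strand): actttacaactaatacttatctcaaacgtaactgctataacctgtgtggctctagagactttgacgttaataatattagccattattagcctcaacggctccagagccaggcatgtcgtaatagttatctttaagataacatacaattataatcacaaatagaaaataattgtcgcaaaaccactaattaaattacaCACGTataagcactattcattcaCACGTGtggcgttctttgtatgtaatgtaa
LHP1 promoter (chr5:5829764-5830013, minus strand): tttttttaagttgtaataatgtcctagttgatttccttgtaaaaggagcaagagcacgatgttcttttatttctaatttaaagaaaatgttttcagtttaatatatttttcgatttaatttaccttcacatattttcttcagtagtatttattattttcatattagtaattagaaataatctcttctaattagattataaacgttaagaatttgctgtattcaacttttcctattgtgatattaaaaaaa
In the VAL1 window the RY letters were found 4 times, starting at -250, -231, -229 and -227 from the start of the gene, the last 3 overlapping, while 8.43% of 27442 promoter windows of the same length held them. VAL1 was the 1 member with these letters, which spell the element that VAL proteins bind. In the SWN window the ABRE letters were found at -53, -30 and -29, where those at -30 and -29 form 1 G-box on both strands; ABRE letters were in 22.9% of windows and G-box letters in 6.49%. The CLF and LHP1 windows, printed without capitals, held none of the motifs. Of the other 6 members VRN2 had 1 ABRE match at -41, and no member held a telobox (4.49% of windows) or GAGA letters (4.91%). These matches describe letters, and binding was not measured.

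In wild type, maturation split the members into those that ran down and those that came up or back. CLF, the PRC2 methyltransferase of vegetative and flowering tissue, was nearly lost by the dry seed, and LHP1 rose. The second methyltransferase SWN dipped, at 18 DAP in batch A and 20 DAP in batch B, and returned. From 12 DAP to dry seed in batch A 1 member rose and 7 fell, with 2 not called, against 82.7% of all 20414 genes tested. Every member changed over the stages of batch A (10 of 10, against 92.2% of all genes), so a change in itself sets none of them apart. In batch B 10 of 10 changed over the stages, against 79.0% of all genes. From 12 to 18 DAP 1 member (LHP1, its sign turning under library totals) rose and 7 fell, against 73.1% of all genes.

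**Figure D1:**
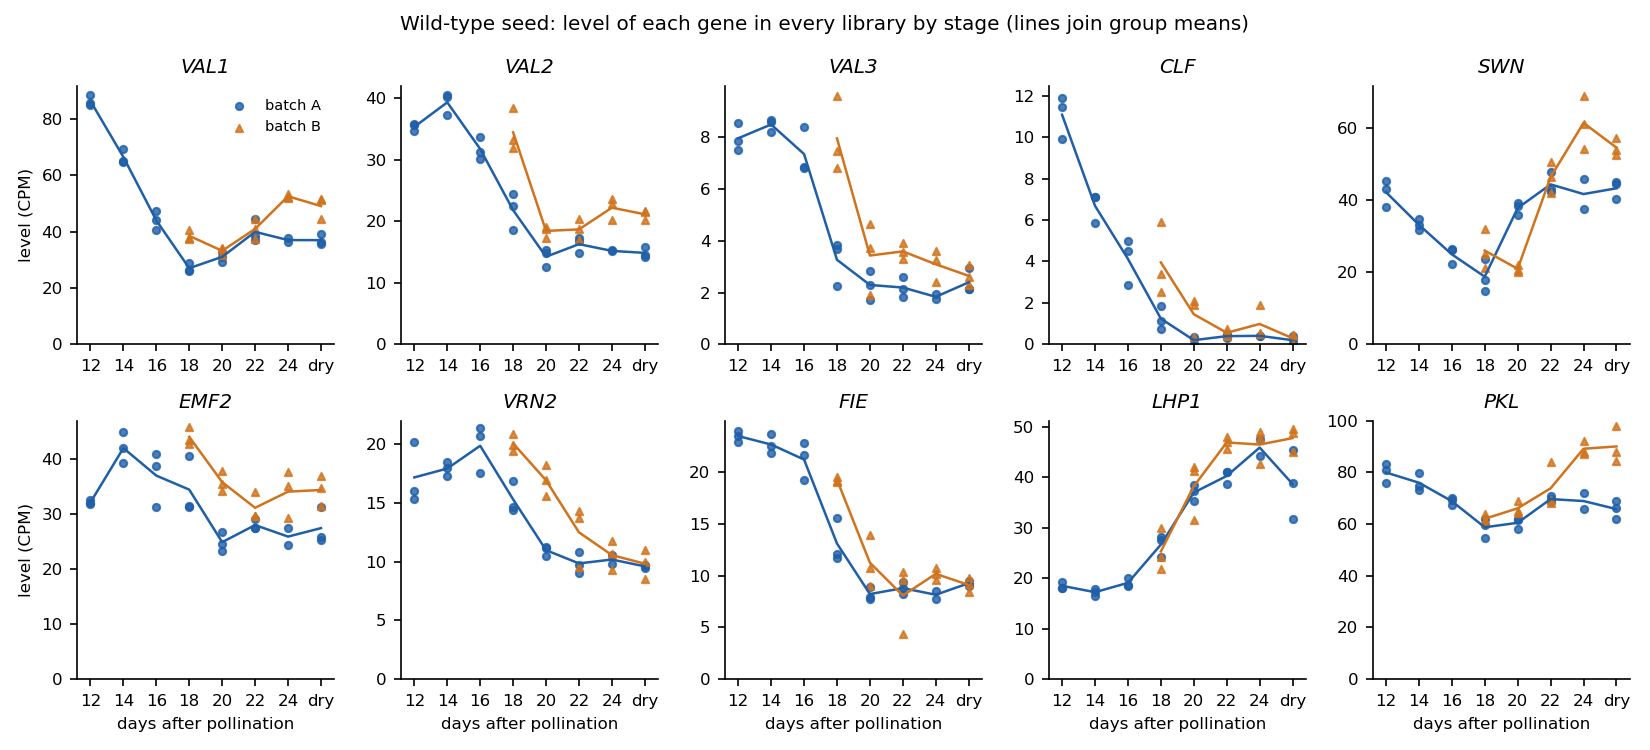
Level of each of the 10 genes in every wild-type library (vertical axis, CPM, its own scale per gene) by stage (horizontal axis, 12 DAP to dry seed), with batch A as circles and batch B as triangles and lines through the group means. CLF falls from 11.1 CPM at 12 DAP to 0.196 CPM in dry seed of batch A, and LHP1 climbs from 18.5 to 38.7 CPM. SWN is lowest at 18 DAP in batch A and at 20 DAP in batch B.

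Among the VAL genes, VAL1 had the highest level per kilobase of transcript at 12 DAP. It held 85.6, 85.0 and 88.6 CPM in the 3 libraries. It stood at 26.4, 26.0 and 28.7 CPM at 18 DAP and at 35.6, 39.1 and 36.2 CPM in dry seed. All late libraries lay below all early ones, and the level at 18 DAP was the lowest of the course. VAL1 fell from 12 to 18 DAP (log2 fold change -1.68, SE 0.08, edgeR adjusted p 5.92e-16) and rose again from 18 DAP to dry (log2 fold change 0.45, SE 0.08, edgeR adjusted p 1.99e-05, and 0.36 in batch B with edgeR adjusted p 0.00236). VAL2, which overlaps with VAL1 in function, went from 35.3 ± 0.654 CPM at 12 DAP to 14.8 ± 0.893 CPM in dry seed (log2 fold change -1.25, SE 0.09, edgeR adjusted p 8.68e-13). VAL3, a less studied relative, went from 7.96 ± 0.539 CPM to 2.39 ± 0.465 CPM (log2 fold change -1.70, SE 0.18, edgeR adjusted p 3.56e-09).

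CLF showed the largest change of the members. Its libraries held, in CPM, 11.9, 11.5 and 9.90 at 12 DAP, 4.99, 2.88 and 4.50 at 16 DAP and 1.12, 0.755 and 1.84 at 18 DAP. At 20 DAP they held 0, 0.266 and 0.329 CPM, and in dry seed 0.395, 0 and 0.193 CPM, which were 7, 0 and 3 counts. The groups at 12, 16, 18 and 20 DAP did not overlap, and late levels rest on a handful of reads. CLF fell by dry seed relative to 12 DAP (log2 fold change -5.52, SE 0.29, edgeR adjusted p 2.67e-15). In batch B it stood higher at 18 and 20 DAP, with 3.40, 2.55 and 5.90 CPM and 1.91, 2.07 and 0.371 CPM, and ended at 0, 0.423 and 0.449 CPM in dry seed (log2 fold change -3.74, SE 0.66, edgeR adjusted p 1.13e-06). Markers of leaf and seedling tissue (4 genes of photosynthesis) fell with CLF from 12 to 18 DAP in wild type of batch A, but not after. Their summed level there was 2789 to 2995 CPM at 12 DAP, 10.3 to 15.4 CPM at 18 DAP and 30.0 to 33.6 CPM in dry seed. In batch B, where CLF fell, the sum was 35.4 ± 6.23 CPM at 18 DAP and 15.0 ± 3.54 CPM at 20 DAP. It was 61.3 ± 46.2 CPM at 22 DAP, 69.15 ± 34.8 CPM at 24 DAP and 36.1 ± 4.90 CPM in dry seed. The part of green tissue in the fall of CLF was not tested.

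SWN took another course. Its libraries held, in CPM, 43.1, 45.3 and 38.1 at 12 DAP, 17.8, 14.6 and 23.7 at 18 DAP and 44.9, 44.5 and 40.3 in dry seed. The 18 DAP libraries were the lowest and did not overlap with either end. SWN fell from 12 to 18 DAP (log2 fold change -1.18, SE 0.12, edgeR adjusted p 1.72e-09), rose from 18 DAP to dry (log2 fold change 1.21, SE 0.12, edgeR adjusted p 1.4e-09) and in dry seed was not called against 12 DAP (log2 fold change 0.04, SE 0.10). In batch B the rise from 18 DAP to dry was 1.11 (SE 0.10, edgeR adjusted p 9.23e-16). The lowest level there was at 20 DAP, with 20.6, 20.1 and 22.0 CPM, against 31.9, 24.9 and 21.1 CPM at 18 DAP. CLF thus made up 20.4% ± 0.701 of the summed CLF and SWN level per kilobase of transcript at 12 DAP and 0.527% ± 0.385 in dry seed.

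Of the subunits that CLF and SWN share the complex with, FIE and VRN2 fell and EMF2 was not called. FIE went from 24.0, 23.0 and 23.5 CPM at 12 DAP to 8.96, 9.53 and 9.31 CPM in dry seed, with no overlap (log2 fold change -1.35, SE 0.09, edgeR adjusted p 2.72e-13). VRN2, known for keeping FLC silent after cold, went from 17.2 ± 2.61 CPM to 9.61 ± 0.121 CPM (log2 fold change -0.84, SE 0.11, edgeR adjusted p 7.67e-08). EMF2, the subunit of vegetative growth, stood at 32.0 ± 0.438 CPM and 27.4 ± 3.30 CPM and was not called (log2 fold change -0.22, SE 0.11); without dry replicate 1 of batch A it was called at -0.33 (edgeR adjusted p 0.0118).

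LHP1, which binds the PRC2 mark, was the member that rose over the whole course. Its libraries held, in CPM, 19.3, 18.1 and 18.0 at 12 DAP, 28.1, 27.6 and 24.2 at 18 DAP and 31.7, 45.4 and 38.9 in dry seed. Dry libraries lay above all those at 12 DAP (log2 fold change 1.05, SE 0.09, edgeR adjusted p 1.08e-10). PKL stayed within 58.8 to 80.0 CPM in its stage means in batch A and fell slightly to dry seed (log2 fold change -0.28, SE 0.07, edgeR adjusted p 0.000494).

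From 18 DAP to dry seed both batches can be read. In batch A 4 members rose and 5 fell (against 63.8% of genes), and in batch B 4 rose and 6 fell (against 66.6%). VAL1, SWN, LHP1 and PKL were the members called higher in each batch and CLF, VAL2, EMF2, VRN2 and FIE those called lower, with VAL3 called lower in batch B alone. Directions of VAL2, EMF2, VRN2 and FIE in batch A, and of EMF2 in batch B, turned when libraries were scaled by their totals. In batch A the call on EMF2 was lost without 18 DAP replicate 1 (-0.19, edgeR adjusted p 0.171) or dry replicate 3 (-0.27, edgeR adjusted p 0.0643). The batch A call on PKL was lost without 18 DAP replicate 1 (edgeR adjusted p 0.0681) or replicate 3 (0.21), or dry replicate 1 (0.1) or replicate 2 (0.161), and VAL3 was called there without 18 DAP replicate 2 (-0.62, edgeR adjusted p 0.0254) or dry replicate 1 (-0.63, edgeR adjusted p 0.0357). Over 5 shared stages the batches differed in VAL2 (log2 B over A 0.22, edgeR adjusted p 0.000922) and VAL3 (0.47, edgeR adjusted p 0.00513), against 30.9% of all genes called. CLF differed by 1.10 (edgeR adjusted p 0.0310), a call lost (edgeR adjusted p 0.0516 to 0.0747) without any 1 of 20 DAP replicate 1 or 24 DAP replicate 2 of batch A, or 18 DAP replicate 3, 20 DAP replicate 2, 22 DAP replicate 1, 24 DAP replicate 2 or dry replicates 2 and 3 of batch B. Without dry replicate 1 of batch A 5 members were called between the batches. The summed level of 4 storage genes of the embryo also differed at 20 DAP, at 96973 ± 15083 CPM in batch A and 343069 ± 56785 CPM in batch B. In dry seed it was 38992 ± 535 CPM in batch A and 44071 ± 3033 CPM in batch B. Whether wild type of the batches had reached the same stage of maturation at equal DAP was not tested.

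In dry seed of abi3-6, abi3-12 dog1-4 and abi3-12 dog1-4 aba2-1, CLF stood high where wild type had almost none, and LHP1 and VAL1 stood lower than in wild type. Dry wild type held 0, 5 and 5 CLF counts, or 0, 0.423 and 0.449 CPM. Dry abi3-6 held 29.0, 38.1 and 31.2 CPM, abi3-12 dog1-4 held 33.1, 32.1 and 31 CPM and abi3-12 dog1-4 aba2-1 held 43.5, 47.4 and 40.9 CPM. Every library of these 3 lines lay far above every wild-type library, and above the 11.1 CPM mean of wild type at 12 DAP in batch A, although that mean comes from the other batch.

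Ratios of summed CLF counts to wild type are given with 95% intervals that cover counting error alone. They were 149.5-fold (81.1 to 312) in abi3-12 dog1-4 aba2-1, 110.4-fold (59.9 to 231) in abi3-6 and 108-fold (58.9 to 227) in abi3-12 dog1-4. Next came 71.2-fold (38.5 to 149) in abi3-12 aba2-1 and 37.8-fold (20.4 to 79.5) in dog1-4 aba2-1, whose libraries held 22.5, 21.3 and 19.1 CPM and 10.9, 11.1 and 11.5 CPM. The lines dog1-4 (1.88, 4.10 and 2.52 CPM), abi3-12 dog1-4 cyp707a2 (2.09, 1.94 and 3.62 CPM) and aba2-1 (3.87, 1.80 and 2.14 CPM) formed a lower step, at 9.60-fold (5.04 to 20.5), 8.99-fold (4.74 to 19.2) and 8.90-fold (4.61 to 19.2). Libraries of the last 3 lines overlapped, and their order was not tested. All these ratios share the same wild-type counts, so their intervals do not compare the lines with each other. CLF was called higher in all 8 of these lines, at edgeR adjusted p from 3.46e-24 in abi3-12 dog1-4 aba2-1 to 0.000185 in aba2-1.

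In the remaining 2 lines CLF stayed below its level in these 8. It held 1.48, 1.21 and 0.575 CPM in abi3-12 (log2 fold change 1.92, SE 0.73, edgeR adjusted p 0.0370), with all 3 libraries above all wild-type ones and a ratio of 3.80-fold (1.89 to 8.46), though the call was lost without wild-type replicate 1 (edgeR adjusted p 0.194) or 2 (0.0509), or abi3-12 replicate 1 (0.165) or 2 (0.0789). It held 0.195, 0.190 and 0 CPM in L2-1, the line with an added DOG1 allele, where it was not called (log2 fold change -1.33, SE 1.27).

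**Figure D2:**
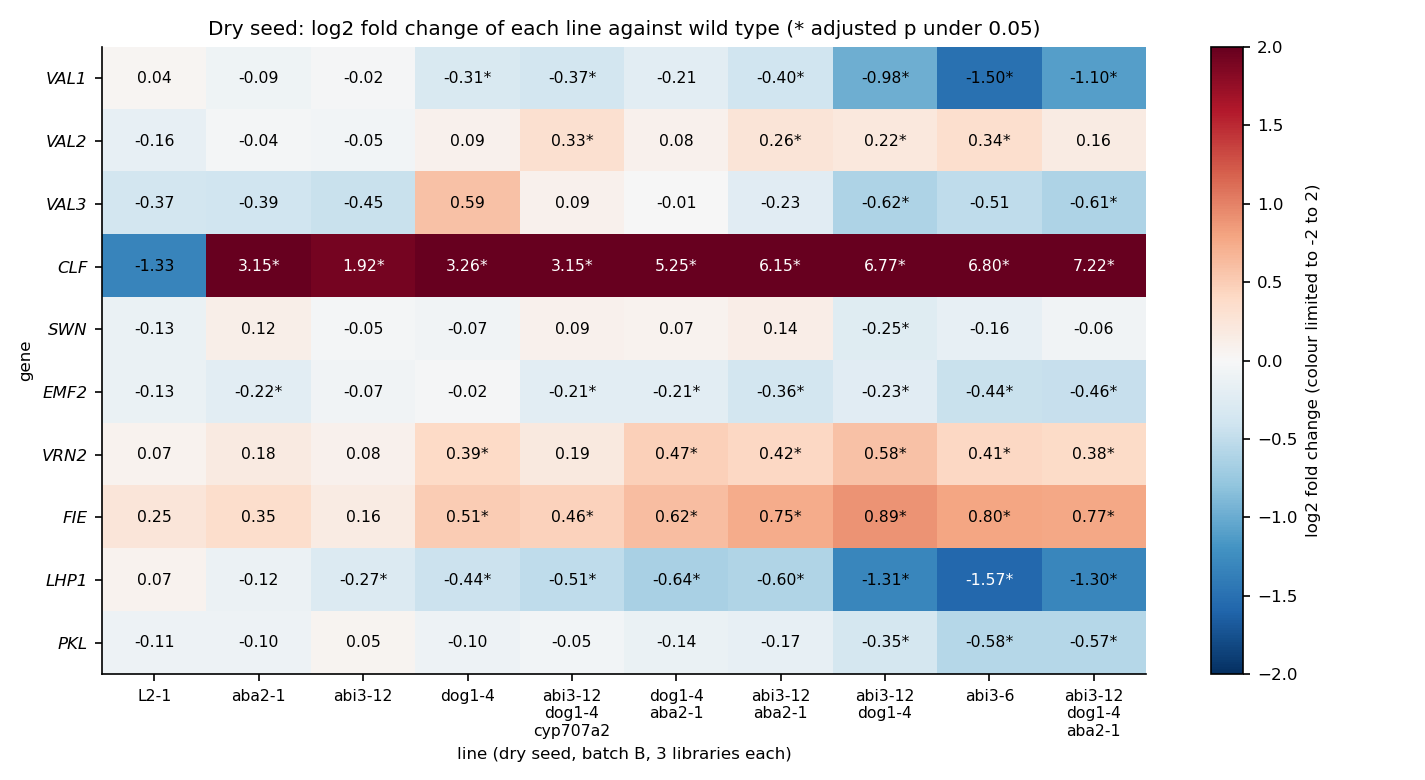
Log2 fold change of each member (rows) in dry seed of each of 10 lines (columns) against dry wild type, batch B, with colour limited to -2 to 2 and a star at an edgeR adjusted p under 0.05. CLF is higher in 9 lines and LHP1 lower in 8, while L2-1 has no star; directions of EMF2, SWN and PKL, of VAL1 in abi3-12 aba2-1 and of VAL3 in abi3-12 dog1-4 turn in some lines when libraries are scaled by their totals.

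Photosynthesis markers stood above wild type in the 9 lines where CLF was called higher. Their summed level was 30.5 to 39.0 CPM in dry wild type, 10940 to 11492 CPM in abi3-6, 4834 to 6206 CPM in abi3-12 dog1-4 aba2-1 and 2828 to 3085 CPM in abi3-12 dog1-4. All 4 genes were called higher in abi3-6 and in abi3-12 dog1-4, where 43.2% and 40.7% of all genes were. The summed level reached 745 to 867 CPM in abi3-12 aba2-1, 580.5 to 710.5 CPM in dog1-4 aba2-1, 373 to 500.1 CPM in abi3-12 dog1-4 cyp707a2 and 239 to 388 CPM in dog1-4. It was 111 to 165 CPM in aba2-1, 87.8 to 117 CPM in abi3-12 and 23.6 to 29.4 CPM in L2-1. Embryo storage genes, summed, held 41754 to 47503 CPM in dry wild type, 1002 to 2070 CPM in abi3-6 and 2710 to 4651 CPM in abi3-12 dog1-4. In each of these 2 lines 4 of 4 were called lower, where 34.5% and 33.1% of all genes were. The storage genes were also below wild type in abi3-12 dog1-4 aba2-1 (6614 to 8663 CPM), abi3-12 aba2-1 (13154 to 16566 CPM), abi3-12 dog1-4 cyp707a2 (24279 to 29376 CPM) and abi3-12 (27414 to 30097 CPM). In dog1-4 they overlapped with wild type (42570 to 52104 CPM), and in aba2-1 (63887 to 68881 CPM) and dog1-4 aba2-1 (62754 to 74865 CPM) they lay above it, although CLF was called higher in these 3 lines too. Endosperm markers summed to 21945 to 23183 CPM in dry wild type and 1541 to 2542 CPM in abi3-6, a sum made almost wholly of EPR1 (22647 and 1938 CPM on average). Of the other endosperm markers AGL62 was at 2.81 and 2.25 CPM, FWA at 0.389 and 0 CPM and ZOU at 0 in both. Seed coat markers summed to 2.12 to 2.33 CPM in dry wild type and 0.172 to 0.487 CPM in dry abi3-6, with TT12 at 0 in both. Whether these shifts have a part in the level of CLF or of the other members was not tested.

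Dry abi3-6 had 4 members called higher and 4 lower, against 77.7% of 20912 genes. VAL1 was at 19.5, 16.7 and 16.0 CPM against 44.4, 51.5 and 51.4 CPM in wild type, and LHP1 at 14.1, 17.5 and 16.5 CPM against 45.0, 48.7 and 49.5 CPM. Neither pair of groups overlapped. VAL1 fell (log2 fold change -1.50, SE 0.10, edgeR adjusted p 4.07e-21), LHP1 fell (log2 fold change -1.57, SE 0.10, edgeR adjusted p 2.99e-22), and PKL fell by less (log2 fold change -0.58, SE 0.08, edgeR adjusted p 1.42e-09). EMF2 was lower at -0.44 (edgeR adjusted p 8.16e-08), a direction that turned under library totals. FIE rose from 9.11 ± 0.704 CPM to 15.8 ± 1.69 CPM (log2 fold change 0.80, SE 0.12, edgeR adjusted p 4.07e-08), and VRN2 and VAL2 rose by 0.41 and 0.34 (edgeR adjusted p 0.00169 and 0.00133). SWN was not called at -0.16 (SE 0.09), but was called lower without abi3-6 replicate 1 (-0.23, edgeR adjusted p 0.0313), and its direction turned under library totals. VAL3 was not called at -0.51 (SE 0.27). Over all genes the median log2 fold change of this comparison was 0.17, and over the 10 members -0.30.

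In dry abi3-12 dog1-4 all 10 members were called, 4 higher and 6 lower, against 73.8% of all genes. LHP1 held 19.4, 20.2 and 18.3 CPM and VAL1 24.6, 25.0 and 25.2 CPM, again below all wild-type libraries (log2 fold changes -1.31 and -0.98, edgeR adjusted p 5.41e-19 and 8.56e-14). FIE rose by 0.89 (SE 0.12, edgeR adjusted p 1.25e-09) and VRN2 by 0.58 (SE 0.12, edgeR adjusted p 9.88e-06). EMF2 was at -0.23 and PKL at -0.35 (edgeR adjusted p 0.00225 and 6.94e-05), and both directions turned under library totals. The calls on VAL2 (0.22), VAL3 (-0.62) and SWN (-0.25) were each lost on leaving out 1 library, and the directions of VAL3 and SWN turned under library totals. For VAL2 this held for wild-type replicate 1 (edgeR adjusted p 0.129), 2 (0.0512) or 3 (0.056) and for replicate 2 of the double line (0.0501). For VAL3 it held for wild-type replicate 2 (0.128) or 3 (0.0501) and double-line replicate 1 (0.0904) or 3 (0.097), and for SWN for double-line replicate 1 (0.0532) or 3 (0.0642).

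The single mutants of this pair had smaller changes. In abi3-12 2 members were called, CLF and LHP1 (against 30.4% of genes), and LHP1 at -0.27 lost its call without any 1 of wild-type replicates 2 and 3 or abi3-12 replicates 1, 2 and 3 (edgeR adjusted p 0.0582 to 0.1). In dog1-4 5 members were called, 3 higher and 2 lower, against 30.6%. LHP1 stood at 37.6, 32.7 and 35.6 CPM (log2 fold change -0.44, SE 0.10, edgeR adjusted p 0.000336) and FIE at 12.7, 13.1 and 13.0 CPM (log2 fold change 0.51, SE 0.13, edgeR adjusted p 0.00105). VAL1 in dog1-4 was at -0.31 (edgeR adjusted p 0.0131), a call lost without wild-type replicate 2 (0.0618) or 3 (0.0613) or dog1-4 replicate 1 (0.0518). VRN2 there was at 0.39 (edgeR adjusted p 0.00850; 0.0899 without wild-type replicate 3), and VAL3 at 0.59 was called without dog1-4 replicate 2 alone (0.73, edgeR adjusted p 0.0422).

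Set directly against abi3-12, the double line differed in 9 members, 4 higher and 5 lower (69.2% of all genes). CLF was higher by 4.85, FIE by 0.74 and VRN2 by 0.50, while LHP1 was lower at -1.04 and VAL1 at -0.96 (edgeR adjusted p 2.75e-20, 1.19e-07, 8.57e-05, 1.26e-14 and 2.68e-13). PKL was lower at -0.40 (edgeR adjusted p 8.42e-06), with the direction turned under library totals. The calls on VAL2 (0.27), SWN (-0.20) and EMF2 (-0.17) were each lost on leaving out 1 library. For VAL2 this held for abi3-12 replicate 1 (0.21, edgeR adjusted p 0.0803). For SWN it held for abi3-12 replicate 2 or 3 or any 1 library of the double line (-0.18 to -0.21, edgeR adjusted p 0.0584 to 0.101). For EMF2 it held for abi3-12 replicate 1 or 3 or any 1 library of the double line (-0.14 to -0.17, edgeR adjusted p 0.0539 to 0.124). The directions of SWN and EMF2 turned under library totals. The allele abi3-6 differed from abi3-12 in 8 members, 4 higher and 4 lower (75.9% of genes), with CLF at 4.88, LHP1 at -1.30 and VAL1 at -1.48 (edgeR adjusted p 9.24e-21, 2.27e-18 and 1.09e-20). VRN2 was higher in that comparison by 0.33, with its call lost without abi3-6 replicate 2 (edgeR adjusted p 0.115) or abi3-12 replicate 1 (0.0704). At 24 DAP the alleles differed in 9 members, 4 higher and 5 lower in abi3-6 (72.9% of genes).

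Apart from abi3-12 dog1-4 aba2-1, the lines carrying aba2-1 had 2 to 7 members called. In aba2-1 alone 2 members were called (15.8% of genes), CLF higher and EMF2 lower at -0.22, the latter lost without wild-type replicate 1 (edgeR adjusted p 0.0777) or 2 (0.19) or aba2-1 replicate 2 (0.0881) or 3 (0.109). FIE was called there without aba2-1 replicate 2 alone (0.44, edgeR adjusted p 0.0275). In dog1-4 aba2-1 5 members were called, 3 higher and 2 lower (48.4%), with LHP1 at -0.64, FIE at 0.62 and VRN2 at 0.47 (edgeR adjusted p 1.3e-07, 3.31e-05 and 0.000755). Its EMF2 call (-0.21) was lost without wild-type replicate 2 (0.103), and VAL1 was called without wild-type replicate 1 (-0.28, edgeR adjusted p 0.0323). In abi3-12 aba2-1 7 members were called, 4 higher and 3 lower (61.5%), with LHP1 at -0.60, FIE at 0.75 and VRN2 at 0.42 (edgeR adjusted p 2.42e-07, 3.57e-07 and 0.00182). VAL1 at -0.40 and EMF2 at -0.36 were called lower there, both directions turning under library totals. VAL2 (0.26) lost its call without wild-type replicate 1 (0.0791), and PKL was called without that same library (-0.21, edgeR adjusted p 0.0339). With all libraries the direction of PKL turned under library totals.

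In abi3-12 dog1-4 aba2-1 8 members were called, 3 higher and 5 lower (75.3%). VAL1 was at 22.8, 23.1 and 22.7 CPM and LHP1 at 18.2, 20.4 and 19.5 CPM, none of which overlapped with wild type (log2 fold changes -1.10 and -1.30, edgeR adjusted p 1.24e-15 and 1.06e-18). VAL3 (-0.61) lost its call without wild-type replicate 2 or 3 or any 1 library of the line (edgeR adjusted p 0.0528 to 0.212), VAL2 was called without the line's replicate 2 (0.24, edgeR adjusted p 0.0469), and EMF2 at -0.46 turned direction under library totals. Against its parent abi3-12 dog1-4 this line had 2 members called (13.3% of genes), EMF2 (-0.23) and PKL (-0.22), with both calls lost on leaving out single libraries: for EMF2 each of the 3 of the parent and replicates 1 and 2 of the line (0.0641 to 0.16), for PKL any 1 of the 6 (0.0917 to 0.267). L2-1 had 0 members called by edgeR, 0 by DESeq2 and 0 at an unadjusted p under 0.05, against 1.01% of genes called.

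Over the stages, CLF rose in abi3-6 up to 20 DAP while wild type lost it. At 16 DAP CLF stood at 11.1 and 11.9 CPM in the 2 abi3-6 libraries against 4.99, 2.88 and 4.50 CPM in wild type. At 18 DAP it held 16.3 and 15.6 CPM against 1.12, 0.755 and 1.84 CPM. At 20 DAP it held 36.6 and 33.7 CPM against 0, 0.266 and 0.329 CPM, and at 22 DAP 30.3 and 32.6 CPM against 0.460, 0.423 and 0.292 CPM. At each of these stages the abi3-6 libraries lay above the wild type, with no overlap. The ratio of summed counts was 2.79-fold (2.25 to 3.49) at 16 DAP, 13.2-fold (8.84 to 20.5) at 18 DAP, 178-fold (75.9 to 549) at 20 DAP and 79.9-fold (46.4 to 151) at 22 DAP in batch A, then 27.9-fold (20.9 to 38.0) at 24 DAP in batch B. Wild type at 20 DAP in batch A had 0, 2 and 3 counts, so the size of that ratio is loosely held (116.5-fold without replicate 1 and 285-fold without replicate 3). At 24 DAP 38 of the 49 wild-type counts came from replicate 2, without which the ratio was 64.0-fold. Summed photosynthesis markers in abi3-6 were 3706 to 3897 CPM at 16 DAP and 8134 to 8697 CPM at 22 DAP, against 91.7 to 114 CPM and 31.8 to 37.0 CPM in wild type, and their part in the result was not tested.

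The effect of abi3-6 on 9 of the 10 members differed between 16, 18, 20 and 22 DAP (edgeR F test of line by stage, against 75.1% of all genes), with PKL not called (edgeR adjusted p 0.725). The adjusted p ran from 8.97e-12 for CLF to 0.00510 for EMF2, the latter being 0.0628 without abi3-6 20 DAP replicate 2. Called members numbered 3 higher and 5 lower at 16 DAP (66.5% of genes), 4 and 3 at 18 DAP (74.5%), 4 and 4 at 20 DAP (79.2%), 3 and 4 at 22 DAP (77.4%) and 4 and 6 at 24 DAP (77.6%). Without abi3-6 16 DAP replicate 1 the count at that stage was 4.

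At 22 DAP VAL1 in abi3-6 was at 15.8 and 15.1 CPM against 38.5, 36.9 and 44.4 CPM in wild type, the lowest mean of VAL1 in any group (log2 fold change -1.37, SE 0.09, edgeR adjusted p 8.79e-13). LHP1 was at 15.3 and 17.6 CPM against 41.1, 41.0 and 38.7 CPM (log2 fold change -1.30, SE 0.11, edgeR adjusted p 4.67e-11). Both were far below wild type in each library. FIE and VAL2 stood higher, at 0.73 and 0.58 (edgeR adjusted p 7.92e-07 and 9.18e-06). VAL3 (-0.70) and PKL (-0.24) were called lower, but VAL3 lost its call without wild-type replicate 2 (edgeR adjusted p 0.164) or abi3-6 replicate 1 (0.29) or 2 (0.0662), and PKL without abi3-6 replicate 1 (0.341), and the direction of PKL turned under library totals. VRN2 was not called at 0.20, but was without abi3-6 replicate 2 (0.43, edgeR adjusted p 0.00686). SWN (-0.07) and EMF2 (-0.18) were not called, and their signs turned under library totals.

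In the double line abi3-12 dog1-4 CLF lay above every wild-type library at each stage from 18 DAP, and the gap was wider at 22 and 24 DAP than at 18 and 20 DAP. CLF held, in CPM, 7.54, 8.28 and 10.3 at 18 DAP, 6.24, 5.10 and 6.60 at 20 DAP, 31.8, 39.4 and 30.6 at 22 DAP and 12.8, 24.4 and 35.7 at 24 DAP. Wild type of the batch held 3.40, 2.55 and 5.90, then 1.91, 2.07 and 0.371, then 0.520, 0.413 and 0.732, then 0.521, 1.90 and 0.517 CPM at the same stages. In the double line the libraries at 20 DAP were thus the lowest and those at 22 DAP lay far above them, with ratios to wild type of 4.20-fold (2.89 to 6.30) at 20 DAP, 66.5-fold (37.1 to 134) at 22 DAP and 24.4-fold (18.3 to 33.1) at 24 DAP. The ratio at 24 DAP rests on wild-type replicate 2, with 38 of the 49 counts, and was 55.9-fold without it. The 12.8 CPM at 24 DAP is from replicate 1, which had the lowest total of the series (2577281) and lay nearer to dry abi3-12 aba2-1 than to its own group, and the ratio without it was 25.6-fold. At 18 DAP the ratio was 2.2-fold (1.68 to 3.04), and its call (log2 fold change 1.15, edgeR adjusted p 0.0108) was lost without wild-type replicate 2 (0.85, edgeR adjusted p 0.135). Summed photosynthesis markers in the double line rose over the same interval, from 379 to 540.2 CPM at 20 DAP to 2401 to 3590 CPM at 22 DAP, and their part was not tested.

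Members called in abi3-12 dog1-4 numbered 2 higher and 4 lower at 18 DAP (41.2% of genes), 4 and 3 at 20 DAP (58.8%), 3 and 5 at 22 DAP (75.2%) and 3 and 6 at 24 DAP (69.4%). The effect differed between stages for 9 members (65.4% of genes), with VRN2 not called (edgeR adjusted p 0.234). Of these, EMF2 lost its call without any 1 library of wild type at 18 or 20 DAP (edgeR adjusted p 0.11 to 0.326) and PKL without wild-type 22 DAP replicate 2 (0.072) or 3 (0.0675) or dry replicate 2 (0.0975). At 22 DAP LHP1 held 19.0, 20.9 and 19.2 CPM against 47.1, 45.7 and 47.9 CPM (log2 fold change -1.25, SE 0.10, edgeR adjusted p 2.08e-17). FIE held 20.7, 18.1 and 20.1 CPM against 9.54, 10.3 and 4.39 CPM (log2 fold change 1.15, SE 0.13, edgeR adjusted p 5.58e-12). The 4.39 CPM was 12 counts in wild-type replicate 3, a shallow library with a total of 3109231, and it lowers the wild-type mean. VAL1 fell by 0.82 (edgeR adjusted p 1.56e-10), a direction that turned under library totals, and VAL3 by 1.18 (edgeR adjusted p 0.000153). SWN at -0.29 and EMF2 at -0.21 lost their calls on leaving out single libraries: SWN without replicate 1 of wild type (0.0761) or replicate 1 (0.142) or 2 (0.0731) of the double line, EMF2 without wild-type replicate 2 (0.151) or double-line replicate 1 (0.214), 2 (0.226) or 3 (0.129). Both directions turned under library totals.

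Other stages of batch B are given as counts of members called with the share of all genes called. In abi3-12 there were 1 higher and 2 lower at 18 DAP (29.1%), 1 and 2 at 20 DAP (37.6%), 1 and 1 at 22 DAP (34.7%) and 0 at 24 DAP (21.3%), the last by edgeR, by DESeq2 and at an unadjusted p under 0.05 alike. The total at 18 DAP was 1 without wild-type replicate 2, and that at 22 DAP was 6 without abi3-12 replicate 3. In abi3-12 CLF held, in CPM, 5.79 and 6.28 at 18 DAP, 2.81, 3.66 and 2.17 at 20 DAP, 2.61, 0.926 and 0.515 at 22 DAP and 1.92, 0.878 and 1.53 at 24 DAP, and was called at none of them, although it was at 22 DAP without abi3-12 replicate 3 (1.87, edgeR adjusted p 0.0394). In dog1-4 3 members were higher at 20 DAP (12.5%), 1 was called at 22 DAP (17.8%), and 2 were higher (VRN2 and FIE) and 2 lower (VAL1 and LHP1) at 24 DAP (15.2%). The total at 22 DAP was 2 without dog1-4 replicate 1, and that at 24 DAP 2 without wild-type replicate 3. CLF in dog1-4 held, in CPM, 0.994, 2.78 and 1.55 at 20 DAP, 1.17, 1.58 and 1.34 at 22 DAP and 1.03, 4.73 and 2.73 at 24 DAP, overlapping with wild type at 20 and 24 DAP, and was called at 24 DAP without wild-type replicate 2 (2.36, edgeR adjusted p 0.00824) or dog1-4 replicate 1 (1.66, edgeR adjusted p 0.0135).

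Against abi3-12, the double line had 0 members called at 18 DAP (12.4% of genes), by edgeR, by DESeq2 and at an unadjusted p under 0.05 alike. It had 3 higher and 2 lower at 20 DAP (36.9%), 4 and 4 at 22 DAP (69.7%) and 3 and 4 at 24 DAP (62.0%), the total at 20 DAP being 3 without abi3-12 replicate 1 or double-line replicate 3. CLF differed from abi3-12 at 20 DAP by 0.98 (edgeR adjusted p 0.0359), a call lost without replicate 1 (0.136) or 3 (0.0842) of abi3-12 or replicate 1 (0.0712) or 3 (0.0863) of the double line.

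In the triple line abi3-12 dog1-4 cyp707a2 CLF lay far below the double line from 22 DAP on. The triple line held 2.73, 4.04 and 2.41 CPM at 22 DAP, below every library of the double line. Set against the double line CLF fell at 22 DAP (log2 fold change -3.47, SE 0.30, edgeR adjusted p 2.67e-16) and in dry seed (log2 fold change -3.62, SE 0.29, edgeR adjusted p 3.12e-17). At 22 DAP 5 members were higher and 3 lower than in the double line (67.9% of genes), at 24 DAP 5 and 2 (53.7%), and in dry seed 5 and 3 (62.4%). At 18 DAP edgeR called 0 members (6.46% of genes), with 1 at an unadjusted p under 0.05 and 0 by DESeq2, and at 20 DAP it called VAL2 (5.83% of genes), a count of 0 without replicate 1 or 3 of the double line or replicate 2 or 3 of the triple line. In dry seed LHP1 held 34.6, 35.3 and 30.8 CPM and VAL1 39.8, 37.7 and 36.7 CPM, above all double-line libraries (0.80 and 0.61, edgeR adjusted p 2.05e-10 and 2.22e-07). FIE and VRN2 fell, by 0.43 and 0.39 (edgeR adjusted p 0.000874 and 0.00169). SWN (0.34) and PKL (0.30) were higher (edgeR adjusted p 0.000670 and 0.000663), both turning direction under library totals, and VAL3 (0.71) lost its call without triple-line replicate 3 (0.60, edgeR adjusted p 0.0614).

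Against dry wild type the triple line still had 3 members higher and 3 lower (48.2% of genes). These were CLF, FIE (0.46) and VAL2 (0.33) higher, and LHP1 (-0.51) and VAL1 (-0.37) lower (edgeR adjusted p 0.00134, 0.00374, 1.14e-05 and 0.00137 after CLF). EMF2 (-0.21) was the sixth; its call was lost without wild-type replicate 2 (edgeR adjusted p 0.107) or line replicate 1 (0.0532), and its direction turned under library totals. Before dry seed it had 1 higher and 4 lower at 18 DAP (33.9%), 4 and 3 at 20 DAP (51.7%), 5 and 2 at 22 DAP (45.1%) and 4 and 3 at 24 DAP (43.9%). The total at 22 DAP was 4 without wild-type replicate 2, and that at 24 DAP 4 without wild-type replicate 1 or line replicate 3. The effect of the triple line differed by stage for VAL2, SWN and VAL3 (32.8% of genes; edgeR adjusted p 8.42e-05, 5.1e-08 and 0.0364), and the last of these was lost without replicate 1 or 3 of wild type or line at 20 DAP, 2 or 3 of either at 24 DAP or 2 of either in dry seed (0.0501 to 0.143). Without wild-type 24 DAP replicate 2, 5 members were called. The effect of abi3-12 differed by stage for SWN (edgeR adjusted p 5.89e-06, against 23.0% of genes), and EMF2 joined it without wild-type 22 DAP replicate 2 (0.0342) or 24 DAP replicate 2 (0.00483). The effect of dog1-4 differed by stage for 0 members by edgeR (4.95% of genes), with 4 at an unadjusted p under 0.05 and 2 called by DESeq2, although CLF was called there without wild-type 20 DAP replicate 3 (0.0446) and PKL without wild-type 22 DAP replicate 1 (0.0411) or dog1-4 24 DAP replicate 3 (0.0488).

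The balance between alternative subunits was read as a log2 ratio per kilobase within each library, and each line was set against wild type by permuting libraries inside stages (a two-sided permutation test), exact where all arrangements could be run, adjusted over 15 tests. CLF gained on SWN in all 5 lines followed over stages, by 4.59 (adjusted p 0.000188) in abi3-6, 1.06 (adjusted p 0.00460) in abi3-12, 1.64 (adjusted p 0.00266) in dog1-4, 4.21 (adjusted p 3e-05) in abi3-12 dog1-4 and 1.83 (adjusted p 3e-05) in the triple line, with the same direction at every stage of each line. EMF2 lost ground to VRN2 in the same way, by -0.44 (adjusted p 0.000450), -0.24 (adjusted p 0.00493), -0.44 (adjusted p 0.000217), -0.73 (adjusted p 3e-05) and -0.42 (adjusted p 7.5e-05) in the same order of lines, also at every stage. VAL1 lost ground to VAL2 in 4 lines, by -0.91 (adjusted p 0.00232) in abi3-6 at 3 of 4 stages, -0.30 (adjusted p 3e-05) in dog1-4 at 4 of 4, -0.71 (adjusted p 8.57e-05) in abi3-12 dog1-4 and -0.52 (adjusted p 3e-05) in the triple line, each at 5 of 5. In abi3-12 it was not called, at 0.04 (adjusted p 0.621). A ratio within a library does not depend on the scaling between libraries, but it does not say which of its 2 transcripts changed, and the lines of batch B share their wild-type libraries. Wild-type CLF counts were 0, 2 and 3 at 20 DAP in batch A and 0, 5 and 5 in dry seed of batch B. With 0.5 added to each count, the sizes of the CLF to SWN differences depend on that added count. The smallest p that the 100000 resamples can give is 1e-05, and that of the 10000 arrangements in abi3-6 is 0.0001.

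**Figure D3:**
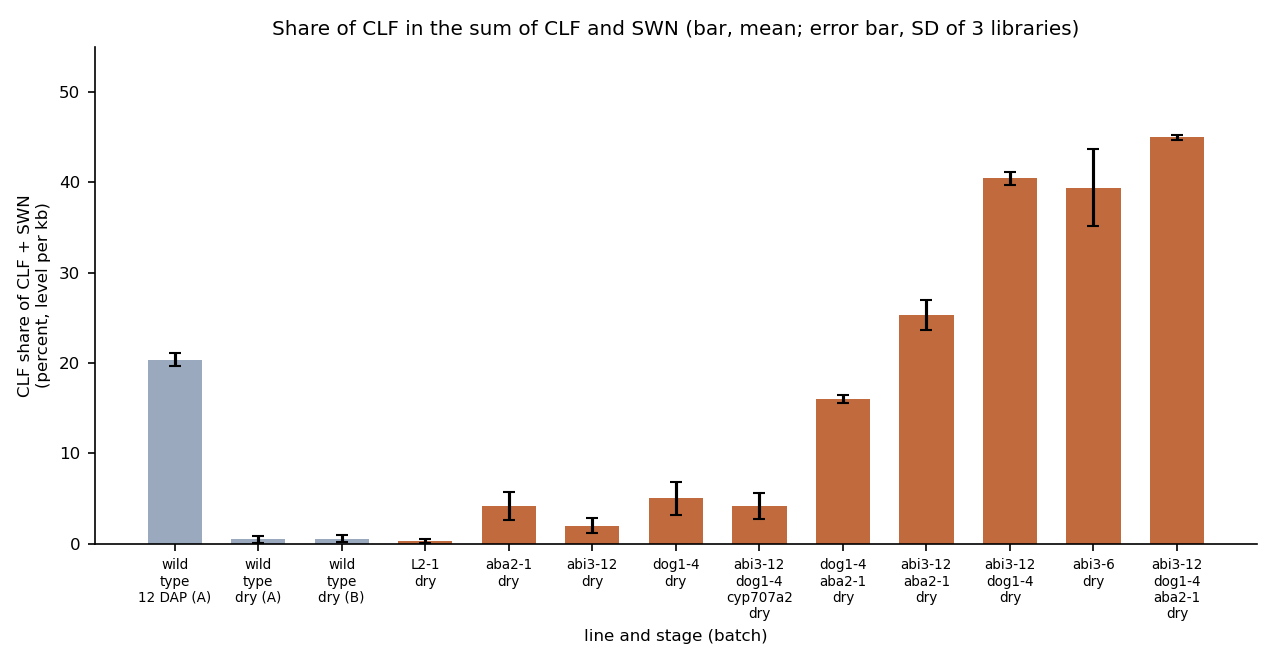
Share of CLF in the summed CLF and SWN level per kilobase of transcript (vertical axis, percent, from 0), as mean and SD of 3 libraries, in wild type at 12 DAP and dry and in dry seed of 10 lines. The share is 20.4% at 12 DAP and 0.583% in dry wild type of batch B, but 45.0% in dry abi3-12 dog1-4 aba2-1, 40.4% in abi3-12 dog1-4 and 39.4% in abi3-6.

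As a share, CLF made up 0.583% ± 0.434 of the pair in dry wild type of batch B, 39.4% ± 4.29 in abi3-6, 40.4% ± 0.679 in abi3-12 dog1-4 and 45.0% ± 0.306 in abi3-12 dog1-4 aba2-1. It was 25.3% ± 1.69 in abi3-12 aba2-1 and 16.0% ± 0.473 in dog1-4 aba2-1. In these last 2 lines the share lay near that of wild type at 12 DAP, 20.4% ± 0.701, a value from batch A. In dog1-4, the triple line with cyp707a2, aba2-1 and abi3-12 it lay between 2.02% and 5.03%, and in L2-1 it was 0.339% ± 0.232. SWN itself was not called against dry wild type in 9 of the 10 lines. It stood at -0.05 in abi3-12, -0.07 in dog1-4 and -0.06 in abi3-12 dog1-4 aba2-1, the sign of the last turning under library totals.

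Between genes, levels are compared per kilobase of the longest transcript. At 12 DAP in wild type (batch A) the order was VAL1 (25.4 ± 0.573 CPM per kilobase), PKL (17.7 ± 0.822), FIE (15.0 ± 0.327), SWN (12.6 ± 1.09), EMF2 (12.3 ± 0.169), VAL2 (9.77 ± 0.181), LHP1 (9.31 ± 0.367), VRN2 (9.12 ± 1.39), VAL3 (3.32 ± 0.225) and CLF (3.21 ± 0.304). SWN and EMF2 did not differ beyond their SDs, nor did VAL2, LHP1 and VRN2, nor VAL3 and CLF. In dry wild type (batch B) LHP1 was highest with 24.1 ± 1.22, then PKL (19.9 ± 1.54), SWN (16.2 ± 0.694), VAL1 (14.4 ± 1.19), EMF2 (13.2 ± 1.06), VAL2 (5.84 ± 0.237), FIE (5.83 ± 0.451), VRN2 (5.22 ± 0.661), VAL3 (1.10 ± 0.159) and CLF (0.0841 ± 0.0729). Of these, VAL1 did not differ beyond the SDs from SWN or from EMF2, although SWN lay above EMF2. VAL2, FIE and VRN2 did not differ beyond their SDs. In dry abi3-6 the order was SWN with 14.6 ± 1.57, then PKL (13.4 ± 0.616), FIE (10.1 ± 1.08), EMF2 (9.69 ± 0.559) and CLF (9.48 ± 1.38), then LHP1 (8.09 ± 0.889), VAL2 (7.41 ± 0.419), VRN2 (6.92 ± 1.54), VAL1 (5.12 ± 0.546) and VAL3 (0.772 ± 0.170). There SWN and PKL did not differ beyond their SDs, nor did any neighbours from FIE down to VAL1.

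Over all 43 groups CLF ranged widest, from a mean of 0.128 CPM in dry L2-1 to 43.9 CPM in dry abi3-12 dog1-4 aba2-1. VAL3 spanned 8.14-fold between its lowest and highest group mean, VAL1 5.60-fold, LHP1 3.69-fold, SWN 3.30-fold, FIE 3.22-fold, VAL2 2.76-fold, VRN2 2.62-fold, EMF2 1.94-fold and PKL 1.82-fold. The spans of VAL3, LHP1, SWN, VRN2, EMF2 and PKL run from a group of batch A to one of batch B, and the batches were scaled apart. The lowest group of FIE, wild type at 22 DAP in batch B, held 1 library with 12 counts of it. PKL kept a rank of 1 to 3 per kilobase in every group and VAL3 one of 9 to 10, whereas CLF took ranks from 2 to 10, VAL1 from 1 to 9 and LHP1 and SWN from 1 to 8.

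The closest pair of members over the 31 group means of batch B was VAL1 and LHP1 (Pearson r 0.907 of log2 CPM, a description over groups that share lines and stages), then VRN2 and FIE (0.812). CLF ran opposite to LHP1 (-0.874) and to VAL1 (-0.795), SWN opposite to VRN2 (-0.823) and FIE opposite to LHP1 (-0.816). Among all genes tested, the patterns most like each member by the same measure were AT5G60710 (0.963) and AT3G12130 (0.961) for VAL1, VFB1 (0.979) and AT2G34355 (0.976) for LHP1, and AT2G21250 (0.973) and AT5G43830 (0.970) for CLF. For SWN they were AT5G60980 (0.957) and AT4G28830 (0.957), for FIE AT3G06035 (0.954) and AT3G57780 (0.954), for VRN2 HAP8 (0.945) and AT5G65170 (0.945), and for PKL AT1G80930 (0.935) and AT4G19610 (0.926). VAL3 had AT4G14780 (0.933) and AT1G28030 (0.901), EMF2 had PRA1.A1 (0.883) and AAE13 (0.877), and VAL2 had the weakest neighbours, AT3G13310 (0.843) and ABCB2 (0.816).

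Other genes of the pathway were read in dry seed from lists of PRC1 proteins, other PRC2 subunits and VEL proteins, cofactors, antagonists and repressed targets, and tested in the same edgeR fit. Of 6 PRC1 genes 5 were tested, and all 5 were lower in abi3-6 and in abi3-12 dog1-4, with 3 lower in abi3-12 and 1 higher and 4 lower in dog1-4. Of all genes tested 77.7% were called in abi3-6 (34.5% lower), 73.8% in abi3-12 dog1-4 (33.1% lower), 30.4% in abi3-12 (14.2% lower) and 30.6% in dog1-4 (13.7% lower). RING1A, a RING-finger ubiquitin ligase subunit of PRC1, went from 197 ± 9.76 CPM in dry wild type to 14.2 ± 1.12 CPM in abi3-6 (log2 fold change -3.79, SE 0.16, edgeR adjusted p 5.29e-32) and 23.8 ± 2.02 CPM in abi3-12 dog1-4 (log2 fold change -3.05, SE 0.15, edgeR adjusted p 9.05e-28). Its relative RING1B fell by 2.94 and 2.30 in the same lines (edgeR adjusted p 1.56e-29 and 8.34e-25), and BMI1A by 0.65 and 0.92 (edgeR adjusted p 3.22e-05 and 1.54e-08). EMF1, a plant PRC1 component, was at -0.68 in abi3-6 and at -0.35 in abi3-12 dog1-4, where the direction turned under library totals. In wild type RING1A and RING1B rose from 12 DAP to dry seed (log2 fold changes 2.32 and 2.29, edgeR adjusted p 1.19e-14 and 8.7e-19), the other 3 tested falling, where 82.7% of all genes were called (45.4% lower).

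Of 6 other PRC2 and VEL genes 5 were tested, and 3 were higher in each of abi3-6 and abi3-12 dog1-4 (VIN3, VRN5 and VEL1, PHD-finger partners of PRC2), with 2 higher in dog1-4, against 77.7%, 73.8% and 30.6% of all genes called. VIN3 had 0 counts in all 3 dry wild-type libraries and was at least 13.2-fold higher in abi3-6 and at least 18.1-fold higher in abi3-12 dog1-4, against a floor of 3 counts over the group. VRN5 rose by 1.42 and 1.76 and VEL1 by 2.54 and 2.1 in the same order (edgeR adjusted p 3.36e-12, 3.69e-16, 4.48e-25 and 5.37e-21). MSI1, the histone-binding WD40 subunit of PRC2, was not called in abi3-6 (log2 fold change -0.07, its sign turning under library totals, relative log expression factors and DESeq2) or in abi3-12 dog1-4 (0.04). The seed-type methyltransferase gene MEA had 0 counts in dry wild type, abi3-6, abi3-12 and abi3-12 dog1-4, and FIS2, the zinc finger subunit of the seed complex, had 0 as well. In wild type 4 of the 5 fell from 12 DAP to dry (82.7% of all genes called), MEA among them from 2.64 ± 1.97 CPM.

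Of 8 cofactor genes 7 were tested. In abi3-6 1 was higher and 2 lower, in abi3-12 dog1-4 1 and 1, in abi3-12 1 and 1 and in dog1-4 0 and 1, against 77.7%, 73.8%, 30.4% and 30.6% of all genes called in the same order. The telobox-binding proteins that help to recruit PRC2 went apart, with TRB1 lower in abi3-6 and abi3-12 dog1-4 (-1.33 and -1.15, edgeR adjusted p 3e-23 and 2.1e-20) and TRB3 higher (0.39 and 0.58, edgeR adjusted p 0.00368 and 1.58e-05). In abi3-12 the log2 fold change of TRB1 was -0.22 and that of TRB2 0.32 (edgeR adjusted p 0.0309 and 0.00739).

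All 10 antagonist genes were tested. In abi3-6 3 were higher and 5 lower, in abi3-12 dog1-4 4 and 4, in abi3-12 0 and 3 and in dog1-4 0 and 1, against 77.7%, 73.8%, 30.4% and 30.6% of all genes called in the same order. ELF6, a demethylase that removes H3K27me3, fell by 2.48 in abi3-6, 1.80 in abi3-12 dog1-4 and 0.68 in abi3-12 (edgeR adjusted p 5.32e-33, 2.08e-26 and 1.77e-08). ULT1, a trithorax-type activator, had 6 counts over the 3 dry wild-type libraries and stood 18.7-fold higher in abi3-6 (8.36 to 51.7) and 19.7-fold higher in abi3-12 dog1-4 (8.91 to 54.3).

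**Figure D4:**
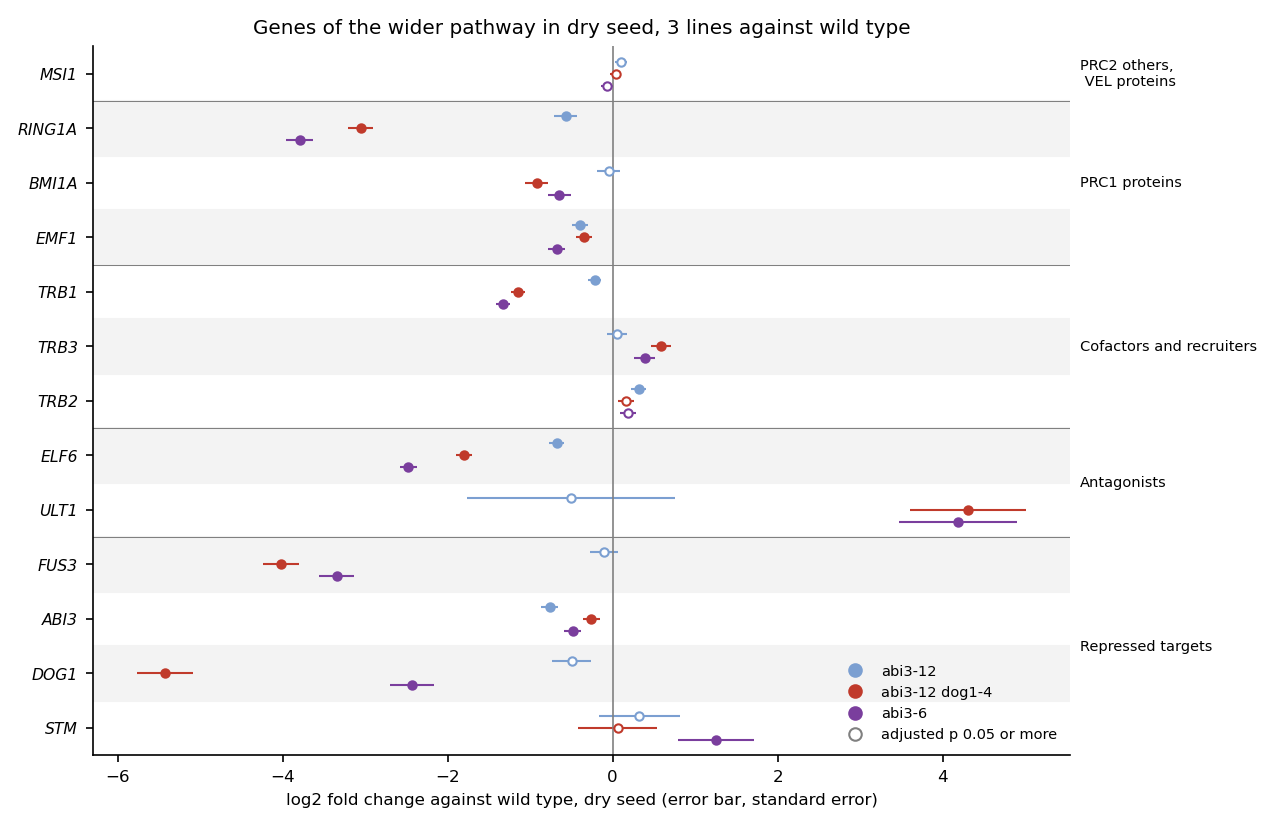
Log2 fold change with SE (horizontal axis) of named pathway genes (vertical axis) in dry seed of abi3-12, abi3-12 dog1-4 and abi3-6 against dry wild type, batch B, with open symbols at an edgeR adjusted p of 0.05 or more. RING1A lies at -3.79 in abi3-6 and -3.05 in abi3-12 dog1-4, and FUS3 at -3.34 and -4.02; signs of MSI1 and ABI3 in abi3-6 and of EMF1 and ABI3 in abi3-12 dog1-4 turn when libraries are scaled by their totals.

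Of 13 genes known as targets of VAL or Polycomb repression 10 were tested in dry seed. In abi3-6 1 was higher and 4 lower, in abi3-12 dog1-4 0 and 4, in abi3-12 0 and 2 and in dog1-4 1 and 3, against 77.7%, 73.8%, 30.4% and 30.6% of all genes called in the same order. FUS3, a B3 regulator of embryo maturation, fell by 3.34 in abi3-6 and 4.02 in abi3-12 dog1-4 (edgeR adjusted p 6.36e-23 and 2.99e-26). DOG1 had a log2 fold change of -2.43 in abi3-6 and -5.42 in abi3-12 dog1-4, which carries its mutation (edgeR adjusted p 1.1e-12 and 5.78e-23), and one of -0.50 in abi3-12, where it was not called (0.111). LEC1 and LEC2, master regulators of the embryo that VAL proteins repress in seedlings, were at 1.44 ± 0.620 CPM and 0.534 ± 0.0412 CPM in wild type at 12 DAP and had 0 counts in dry wild type, abi3-6, abi3-12 and abi3-12 dog1-4. STM, a homeobox gene of the shoot meristem, was the target called higher in abi3-6 (log2 fold change 1.25, SE 0.46, edgeR adjusted p 0.0109). ABI3 itself was at -0.48 in abi3-6 and -0.26 in abi3-12 dog1-4, both signs turning under library totals, and at -0.76 in abi3-12. In wild type all 11 targets tested changed from 12 DAP to dry, FLC rising and the other 10 falling, where 82.7% of all genes were called (45.4% lower). The median over these list genes in dry abi3-6 was -0.25, against 0.17 for all genes.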

How the data were processed

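The authors deposited 1 table of raw counts per gene for 123 libraries of Arabidopsis thaliana seeds. The count values were checked to be whole numbers. Per the labels' protocols, poly(A) RNA was selected, and random hexamers primed the libraries, which keep the strand. HISAT2 2.1.0, Cufflinks, SAMtools and StringTie 1.3.2 and the build TAIR10 are named in the submitters' processing notes, with no role or order. The program that counted, its annotation, its use of strand and its treatment of reads that map to several places are not given in the sources used here. Gene symbols, coordinates and promoter sequences come from RefSeq for TAIR10.1, which matched 37051 of the 37336 identifiers. No protein sequence was used here.

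Libraries were grouped by genotype, stage and batch as labelled, and each batch was fitted apart with edgeR 4.0.16 in R 4.3.3: filterByExpr with a minimum count of 10, factors from the trimmed mean of M values (TMM), trended dispersion, 1 coefficient per group and the quasi-likelihood test over 20414 genes in batch A and 20912 in batch B. Wild type of both batches was fitted together over 17634 genes to test the batch. The 55 comparisons were 6 within wild type, 30 of lines with wild type, 13 between lines, 5 of line effects by stage and 1 of batches. Batch A and lines other than abi3-6 never meet, so no such comparison crosses batches. Counting intervals are 95% and exact, and cover counting error alone, since the reads carry no molecular identifiers. Ratios within a library were log2 per kilobase with 0.5 added to each count. Likeness used log2 CPM with a prior count of 2. Pairs of libraries of a group were compared for shared sequencing: over 117 pairs the lowest chi-squared per degree of freedom was 2.98, so none was counted as 1 sample.

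The fit was tested on simulated data. Alternatives were relative log expression (RLE) factors, library totals, no filter, only the groups compared, DESeq2 1.42.0, the replicate number as a block and each library left out in turn. The 10 members were given by identifier, and the members, the pathway lists and the tests were chosen with earlier results of these data known. The genes named by rule were the members, the 10 pathway genes MSI1, MEA, FIS2, EMF1, BMI1A, LEC1, LEC2, FUS3, ABI3 and DOG1, the largest called rise and fall of each list in dry abi3-6, abi3-12 and abi3-12 dog1-4, and the 2 genes most like each member. RING1B, VRN5, VEL1 and FLC were named after their values were seen.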

Additional observations from a re-analysis of the deposited data

Results flagged for a closer look

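The effect of a line against wild type differed between stages for 22 combinations of member and line, by edgeR's F test of line by stage with Benjamini-Hochberg adjustment over all genes. In abi3-6 (batch A, 16 to 22 DAP) the edgeR adjusted p was 1.57e-07 for VAL1, 3.38e-07 for VAL2, 5.5e-06 for VAL3, 8.97e-12 for CLF and 6.05e-06 for SWN. It was 0.0051 for EMF2, 0.000139 for VRN2, 7.08e-07 for FIE and 2.17e-07 for LHP1 in the same line.

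In abi3-12 dog1-4 (batch B, 18 DAP to dry) the edgeR adjusted p was 1.57e-07 for VAL1, 0.00054 for VAL2, 1.21e-08 for VAL3, 7.13e-11 for CLF and 1.78e-11 for SWN. It was 0.00647 for EMF2, 0.00108 for FIE, 5.07e-07 for LHP1 and 0.0324 for PKL. In abi3-12 dog1-4 cyp707a2 it was 8.42e-05 for VAL2, 0.0364 for VAL3 and 5.1e-08 for SWN, and in abi3-12 5.89e-06 for SWN. The calls on EMF2 in abi3-6 and in abi3-12 dog1-4, on PKL in abi3-12 dog1-4 and on VAL3 in abi3-12 dog1-4 cyp707a2 were lost on leaving out single libraries, which took their adjusted p up to 0.0628, 0.326, 0.0975 and 0.143.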

How the results depend on the processing

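Counts of members called moved by over 1.5 times under these settings. With library totals they became 6, 7, 4 and 1 in abi3-12 at 18, 20 and 22 DAP and dry, 7, 6 and 2 in dog1-4 at 20, 22 and 24 DAP, 10 in abi3-12 dog1-4 at 18 DAP, 8 in abi3-12 dog1-4 cyp707a2 at 18 DAP and 1 in aba2-1. They became 7 and 9 for abi3-12 dog1-4 against abi3-12 at 18 and 20 DAP, 3 and 0 for abi3-12 dog1-4 cyp707a2 against abi3-12 dog1-4 at 18 and 20 DAP, and 2, 3 and 9 for the effects by stage of abi3-12, dog1-4 and abi3-12 dog1-4 cyp707a2. With each fit limited to the groups it compares they were 1, 0 and 1 in abi3-12 at 18 DAP, 22 DAP and dry, 0 and 2 in dog1-4 at 20 and 24 DAP, 4 in abi3-12 dog1-4 cyp707a2 at 22 DAP, 1 in aba2-1, and 4 for abi3-12 dog1-4 aba2-1 against abi3-12 dog1-4. With no filter they were 1 in dry abi3-12, 1 in aba2-1 and 1 for abi3-12 dog1-4 aba2-1 against abi3-12 dog1-4. With RLE factors they were 2 in dog1-4 at 22 DAP and 1 for abi3-12 dog1-4 aba2-1 against abi3-12 dog1-4. With DESeq2 they were 5 in abi3-12 dog1-4 at 24 DAP, and 2 and 5 for the effects by stage of dog1-4 and abi3-12 dog1-4 cyp707a2. The 1 call for abi3-12 dog1-4 cyp707a2 against abi3-12 dog1-4 at 20 DAP became 0 under all of these settings and the block. The cause was not tested.

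Replicate numbers are shared between groups, but by the median same-numbered libraries did not deviate together, and the numbers were not used as pairs. The median correlation was 0.0377 in batch A, with 1 of 8 pairs over 0.1, and 0.0208 in batch B, with 76 of 285. In batch B the correlations ran from -0.366 to 0.520, and whether some same-numbered libraries share more than a number was not tested. With the replicate number as a block, 2 counts of members moved: 0 for abi3-12 dog1-4 cyp707a2 against abi3-12 dog1-4 at 20 DAP and 1 for abi3-12 dog1-4 aba2-1 against abi3-12 dog1-4.

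Leaving out 1 library gave 4 to 7 members called in abi3-6 at 16 DAP, 1 to 4, 2 to 6 and 0 to 1 in abi3-12 at 18 DAP, 22 DAP and dry, and 1 to 2, 2 to 4 and 3 to 6 in dog1-4 at 22 DAP, 24 DAP and dry. It gave 4 to 7 in abi3-12 dog1-4 cyp707a2 at 22 and at 24 DAP, 1 to 2 in aba2-1, 3 to 5 for abi3-12 dog1-4 against abi3-12 at 20 DAP, 0 to 1 for abi3-12 dog1-4 cyp707a2 against abi3-12 dog1-4 at 20 DAP and 0 to 1 for abi3-12 dog1-4 aba2-1 against abi3-12 dog1-4. For effects by stage it gave 1 to 2 in abi3-12, 0 to 1 in dog1-4 and 2 to 5 in abi3-12 dog1-4 cyp707a2, and for the batches 2 to 5. Of 307 results on single members 56 changed their call, 33 lost and 23 gained.

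Signs turned with library totals in 39 results. These were EMF2 (-0.43) and LHP1 (-0.00985) in wild type from 12 to 18 DAP, VAL2 (0.14), EMF2 (0.36), VRN2 (0.0188) and FIE (0.19) from 18 DAP to dry in batch A and EMF2 (0.24) in batch B. In abi3-6 they were SWN (0.51), EMF2 (0.40) and PKL (0.34) at 22 DAP and SWN (0.39), EMF2 (0.12) and ABI3 (0.0781) in dry seed. In abi3-12 dog1-4 they were VAL1 (0.00518), SWN (0.54), EMF2 (0.63) and PKL (0.80) at 22 DAP and VAL3 (0.00895), SWN (0.38), EMF2 (0.40), PKL (0.28), EMF1 (0.28) and ABI3 (0.37) in dry seed. In other dry lines they were EMF2 (0.0832) and PKL (0.24) in abi3-12 dog1-4 cyp707a2, VAL1 (0.0735), EMF2 (0.11) and PKL (0.31) in abi3-12 aba2-1, and SWN (0.49) and EMF2 (0.0938) in abi3-12 dog1-4 aba2-1. Between dry lines they were SWN (0.28) and EMF2 (0.0265) for abi3-6 against abi3-12, SWN (0.27), EMF2 (0.31) and PKL (0.0773) for abi3-12 dog1-4 against abi3-12, and SWN (-0.00328), EMF2 (-0.31) and PKL (-0.0392) for abi3-12 dog1-4 cyp707a2 against abi3-12 dog1-4. MSI1 in dry abi3-6 turned under library totals (0.48), RLE factors (0.16) and DESeq2 (0.15), and PKL in abi3-12 dog1-4 at 22 DAP under RLE factors (0.17). Each of the 42 kept its sign relative to the median gene of its setting. Library totals moved the median gene by over 0.1 in 43 of 48 comparisons, RLE factors in 18 (-0.15 to 0.246) and DESeq2 in 18 (-0.151 to 0.247), and moved the split of higher against lower calls by over 10 points in 45. In dry abi3-6 72% of called genes were higher with library totals against 55.6%, and in dry abi3-12 dog1-4 77.7% against 55.1%. Ranks per kilobase moved to 7 with coding length and 6 with CPM for VAL2, 8 with CPM for FIE, and 3 and 1 for PKL. No ratio between members changed its call under other added counts or a left-out library. Depth limits CLF most: dry wild-type libraries held 0 to 7 counts of it, so the sizes of its ratios have wide intervals.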
